A study of Mus musculus with 12 samples.

Results

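The 10 genes described here are markers of cardiac fibroblasts in 2 states: Pdgfra, Tcf21, Pi16, Dpt and Gsn for resting fibroblasts, and Postn, Fap, Meox1, Cthrc1 and Runx1 for activated fibroblasts. They were matched by symbol to the Ensembl identifiers of 2 tables of read counts from mouse hearts, and all 10 were found among the 38293 identifiers of both tables. The first table holds hearts of 3 WT sham mice (strain spelled C75Bl/6J in their labels). It also holds hearts of 3 C57Bl/6J WT mice 14 days after ischaemia-reperfusion (WT IR). In that surgery the left anterior descending coronary artery was tied for 1 h and then released. The sources give an age of 8 to 9 weeks for all animal experiments. They name male mice in the account of the transgenic models, and male and female mice elsewhere. The second table holds hearts of 3 wild-type littermates (Zeb2 WT IR) and 3 mice labelled ZEB2 Tg (Zeb2 cTg IR), all 14 days after the same surgery and all C57Bl/6J by their labels. In Zeb2 cTg mice the transgene, Zeb2 behind a stop cassette at Rosa26, is switched on by a Cre under the Myh6 promoter, which is active in cardiomyocytes and not in fibroblasts. The Cre status of the littermates is not given in the sources used here, and the second table has no sham hearts. For the tissue, the sources name the remote zone, the left ventricle, or the infarct with its border zone. The labels number the 3 hearts of a group as replicates, so p-values measure the spread between these hearts, and each table was normalized on its own.

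Cardiac fibroblasts lie between cardiomyocytes and keep up the collagen network of the heart. After infarction, resident fibroblasts that carry the PDGF receptor alpha divide, move into the damaged wall and turn into matrix-producing activated cells, some of which become contractile myofibroblasts. Transforming growth factor beta and mechanical load are the best known drivers of this change, which is needed for a firm scar but stiffens the wall where it goes on.

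Among the resting markers, Pdgfra (chr5:75152292-75198215, plus strand) is the receptor for PDGF ligands and the usual surface marker of these cells. Tcf21 (chr10:22817281-22820174, minus strand) is a basic helix-loop-helix transcription factor that epicardial cells need to become fibroblasts. Pi16 (chr17:29317680-29330593, plus strand) encodes a membrane-bound peptidase inhibitor of adventitial fibroblasts, Dpt (chr1:164796644-164824266, plus strand) the matrix protein dermatopontin, and Gsn (chr2:35256380-35307892, plus strand) the actin-severing protein gelsolin, which many cell types make. Among the activated markers, Postn (chr3:54361109-54391037, plus strand) encodes periostin, a matricellular protein of the healing infarct. Fap (chr2:62500943-62574075, minus strand) encodes the fibroblast activation protein, a surface protease, and Cthrc1 (chr15:39076932-39087121, plus strand) a secreted protein of the fibroblasts of the scar. Meox1 (chr11:101877510-101894374, minus strand) is a homeobox factor of activated fibroblasts, and Runx1 (chr16:92601466-92826149, minus strand) is a Runt-domain factor that blood and immune cells also use. All positions are those of whole genes in GENCODE M21 on GRCm38. Of the antisense genes annotated over members, those over Meox1 and Runx1 had at most 1 count in any library, and those over Pdgfra, Tcf21, Pi16 and Dpt have no identifier among the rows used here, so their reads were not checked.

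The sequences around the starts of 7 of the 10 genes were found in the RefSeq table used here (GRCm38.p6), in 11 windows of 250 bases before to 50 bases after a start. Those of Postn, Dpt and Pdgfra are shown because Postn and Dpt are the members of the 2 classes with the largest changes among those with a window, and Pdgfra is the receptor that defines these cells. They are written 5′ to 3′ along the gene, all 3 on the plus strand, with the E-box letters CANNTG and the TATA-box letters TATAAA in capitals (both strands searched, and a match of each abuts the other in Dpt). The windows are chr3:54360857-54361156, chr1:164796413-164796712 and chr5:75152001-75152300.
Postn: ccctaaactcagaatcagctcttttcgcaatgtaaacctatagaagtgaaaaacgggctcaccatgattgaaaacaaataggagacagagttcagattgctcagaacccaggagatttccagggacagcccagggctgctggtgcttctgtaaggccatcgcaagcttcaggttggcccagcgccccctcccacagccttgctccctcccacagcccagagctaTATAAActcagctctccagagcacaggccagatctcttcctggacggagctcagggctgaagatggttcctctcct
Dpt: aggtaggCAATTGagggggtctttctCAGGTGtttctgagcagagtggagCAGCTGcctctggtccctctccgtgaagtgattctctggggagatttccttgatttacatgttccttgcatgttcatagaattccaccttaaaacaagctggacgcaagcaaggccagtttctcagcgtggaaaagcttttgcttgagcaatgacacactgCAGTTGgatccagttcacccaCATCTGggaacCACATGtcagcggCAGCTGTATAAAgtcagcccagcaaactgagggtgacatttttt
Pdgfra: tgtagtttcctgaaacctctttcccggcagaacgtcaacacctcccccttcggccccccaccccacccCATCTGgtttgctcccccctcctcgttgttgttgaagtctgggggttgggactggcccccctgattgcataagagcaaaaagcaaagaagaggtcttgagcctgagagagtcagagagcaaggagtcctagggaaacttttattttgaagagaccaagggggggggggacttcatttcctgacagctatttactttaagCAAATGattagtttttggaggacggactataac
The Dpt window held 7 E-boxes, the Pdgfra window 2, and neither of the 2 Postn windows held 1. E-boxes are the letters that helix-loop-helix factors such as Tcf21 read, and ZEB proteins read the E-box CACCTG. An E-box was present in 72.3% of all 32851 windows of this length, and in 6 of 7 windows of resting and 1 of 4 windows of activated markers. CACCTG (or CAGGTG on the other strand), a subset of these E-boxes, was present in 20.2% of all windows and in 3 of the 11 (Dpt, and 1 window each of Gsn and Runx1). TATAAA was present in 13.6% of all windows and in 2 of the 11, those of Postn and Dpt. TGTGGT, the core letters read by Runx factors, was present in 16.8% of all windows and in 4 of the 11. TAATTA, a homeobox core, was present in 5.3% of all windows and in 0 of the 11. These matches are letters only and say nothing of binding.

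Counts per library lay between 20215781 and 36816818, but between 60.6% and 73.5% came from the mitochondrial genome, so that 5706340 to 11618213 counts were left for all other genes. One CPM (a count per 1e6 counts of the TMM-adjusted library size) stood for 17.2 to 37.8 counts. Zeb2, the gene of the transgene, was read first as a check of the labels. It was at 54.7, 57.8 and 67 CPM in Zeb2 WT IR hearts and at 55.5, 56.9 and 58.7 CPM in the hearts labelled Zeb2 cTg IR (log2 fold change -0.07 ± 0.12 SE, adjusted p = 0.75, edgeR). Zeb2 RNA was thus not higher in the libraries that should overexpress it, so below they are named by their label, as Zeb2 cTg-labelled libraries. The authors, in contrast, reported higher Zeb2 RNA by qPCR and higher ZEB2 protein by immunofluorescence in Zeb2 cTg hearts 14 days after surgery. The log2 fold change of Zeb2 in the counts turned to 0.20 ± 0.13 after a correction for GC content, and to 0.52 ± 0.31 with libraries scaled on fibroblast genes. Cardiomyocyte markers, at a summed 53700 to 80400 CPM with all 22 genes counted in every library, showed that the libraries come from heart muscle. Lymphocyte markers, at a summed 0.702 to 2.8 CPM, were near 0, and epicardial and mesothelial markers were low, at 1.47 to 9.76 CPM.

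In uninjured hearts the resting markers were the more abundant class. Per kilobase of exon, Gsn stood first in WT sham at 116 ± 7.16 CPM per kb (SD, n = 3), followed by Dpt at 13.9 ± 1.28 CPM per kb. Postn at 4.59 ± 2.54, Pdgfra at 3.28 ± 0.0338, Pi16 at 3.06 ± 0.22 and Meox1 at 2.86 ± 0.175 CPM per kb followed, and among these 4 each overlapped the next in its range over libraries. Fap at 0.671 ± 0.0302, Tcf21 at 0.573 ± 0.0429, Runx1 at 0.247 ± 0.0226 and Cthrc1 at 0.207 ± 0.294 CPM per kb closed the order. Of neighbours among these, only Runx1 and Cthrc1 overlapped, and the range of Cthrc1 (0.0365 to 0.546) also reached that of Tcf21 (0.535 to 0.619). In WT IR hearts Postn was at 51.8 ± 28.9 CPM per kb and stood above Dpt at 49.7 ± 22.1, although their ranges overlapped, and Cthrc1 at 3.46 ± 2.1 CPM per kb stood above Fap at 1.16 ± 0.301 with no overlap. In Zeb2 WT IR hearts Dpt at 28.7 ± 8.35 CPM per kb stood above Postn at 20.3 ± 13.6, with overlap. Gsn stayed first in all 4 groups and did not overlap the second gene in any of them. WT sham, Zeb2 WT IR and the Zeb2 cTg-labelled libraries had the same first 4 genes in the same order, and Cthrc1 was last in the latter at 0.0813 ± 0.0586 CPM per kb.

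To examine what injury did to the 2 classes, WT IR was compared with WT sham hearts by edgeR's quasi-likelihood test over 13756 genes. All 5 activated markers rose (adjusted p under 0.05), with a median log2 fold change of 1.75, and 3 of the 5 resting markers rose as well, with a median of 0.78 over the 5. Of the activated markers Cthrc1 was tested only because of its counts in WT IR. With at least 10 counts required in every library it was not tested, and the other 4 passed with a median of 1.46. No member fell. Of all genes tested, 11.0% passed in the upward and 9.74% in the downward direction, and the median of all genes was 0.01. Of the 10 members, 9 did not overlap between the groups, all of them higher in WT IR, where 20.5% of all genes were higher and 19.3% lower without overlap. These directions held under TMM, RLE, upper-quartile and cardiomyocyte-marker scaling, but with libraries scaled on 16 fibroblast genes (below) all resting markers but Dpt, and Fap and Runx1 among the activated ones, turned to values below 0.

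**Figure D1:**
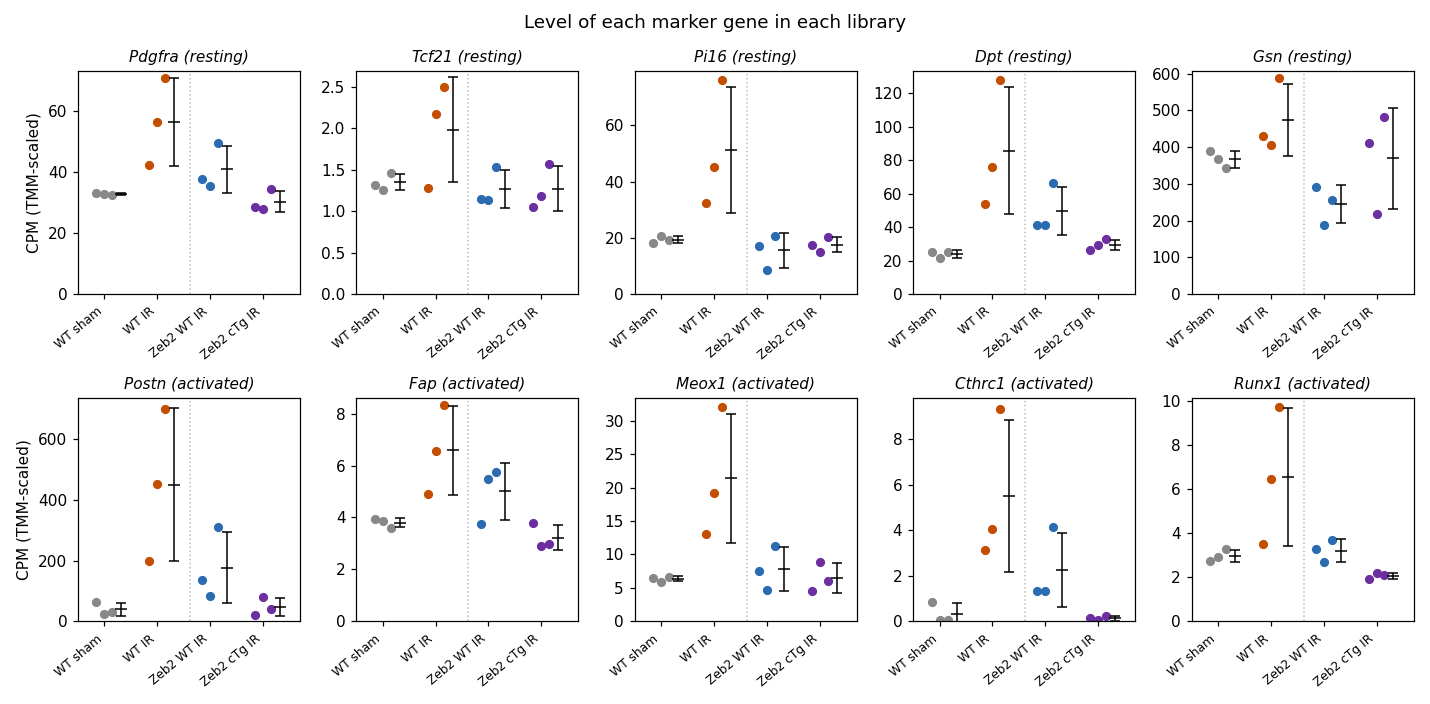
Level of each of the 10 marker genes (CPM, y axis starting at 0 and differing between panels) in each of the 12 libraries, as points in replicate order, for WT sham, WT IR, Zeb2 WT IR and the Zeb2 cTg-labelled libraries, with the mean and SD (n = 3) as black bars at the right of each group. The dotted line parts the 2 tables, which were normalized separately. WT IR points stand above all WT sham points for every gene but Tcf21, and Cthrc1 is at or under 0.225 CPM in all 3 Zeb2 cTg-labelled libraries.

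Postn was at 65.3, 24.4 and 30.1 CPM in WT sham and at 198, 454 and 700 CPM in WT IR hearts. All 3 injured hearts were above all sham hearts, and the rise was 11.3-fold (log2 fold change 3.49 ± 0.49 SE, adjusted p = 0.00402). Cthrc1 gave 23, 2 and 1 counts in WT sham and 100, 154 and 250 counts in WT IR hearts. The ratio of the summed counts per library size, 504 against 26, was 15.3 with an exact 95% interval of 10.3 to 23.6 for counting error only, beside a fitted log2 fold change of 3.97 ± 0.69 (adjusted p = 0.00729). Cthrc1 passed the filter on low counts through the WT IR libraries, since only 1 sham library reached the minimum, so its call says less than those of the other members. WT sham replicate 1 held most of the sham counts of Cthrc1 and the highest sham value of Postn, and without it the values were 6.39 and 4.05, both still past the threshold. Cthrc1 lost its call without WT sham replicate 2 (adjusted p = 0.0519).

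The transcription factor Meox1 was at 6.54, 5.92 and 6.64 CPM in WT sham and at 13.1, 19.2 and 32 CPM in WT IR hearts. It rose 3.36-fold (log2 1.75 ± 0.28, adjusted p = 0.00546), again with no overlap. Runx1 was at 2.72, 2.91 and 3.26 CPM in WT sham and at 3.5, 6.43 and 9.73 CPM in WT IR hearts, a 2.21-fold rise (log2 1.14 ± 0.32, adjusted p = 0.0321) that turned to -0.39 with scaling on fibroblast genes. The lowest injured heart lay just above the highest sham heart. The protease gene Fap was at 3.93, 3.86 and 3.61 CPM in WT sham and at 4.91, 6.56 and 8.32 CPM in WT IR hearts, a 1.72-fold rise (log2 0.78 ± 0.18, adjusted p = 0.0182) that turned to -0.67 with that scaling. Runx1 lost its call when any library but WT IR replicate 1 was left out (adjusted p from 0.0531 to 0.127), and Fap when any WT sham library or WT IR replicate 2 was left out (0.0574 to 0.0851). Runx1 also lost it with limma-voom (log2 1.01, adjusted p = 0.0767).

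Of the resting markers, Dpt moved most, from 25.1, 21.3 and 25.2 CPM in WT sham to 53.6, 75.8 and 128 CPM in WT IR hearts. This was a 3.59-fold rise (log2 1.84 ± 0.26, adjusted p = 0.00407), and Dpt was the only resting marker that stayed above 0 (0.33) with scaling on fibroblast genes. Pi16 was at 18, 20.8 and 19.4 CPM in WT sham and at 32.4, 45 and 76 CPM in WT IR hearts (log2 1.39 ± 0.26, adjusted p = 0.00871, and -0.13 with that scaling). Pdgfra was at 33.3, 32.8 and 32.6 CPM in WT sham and at 42.2, 56.4 and 71 CPM in WT IR hearts (log2 0.78 ± 0.16, adjusted p = 0.0111, and -0.68 with that scaling). The 2 genes kept apart in every pair of libraries across the groups, and both lost their calls without WT sham replicate 2 (adjusted p = 0.0526 and 0.0657). Gsn was at 390, 367 and 344 CPM in WT sham and at 430, 405 and 588 CPM in WT IR hearts, and did not pass the threshold (log2 0.37 ± 0.14, adjusted p = 0.0932), although its groups did not overlap. Tcf21 was at 1.32, 1.26 and 1.46 CPM in WT sham and at 1.28, 2.17 and 2.5 CPM in WT IR hearts, with overlapping groups and 25 to 82 counts per library (log2 0.57 ± 0.26, 95% interval -0.01 to 1.14, adjusted p = 0.144).

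**Figure D2:**
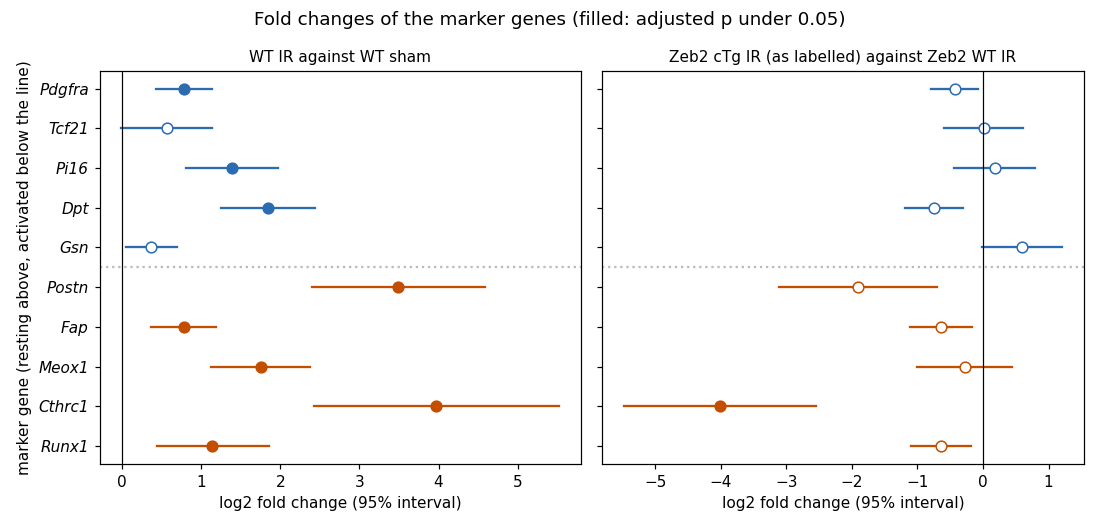
Log2 fold change (x axis) of each marker gene in the 2 comparisons, with the 95% interval of edgeR's fit as lines, resting markers in blue and activated markers in orange, and filled points for an adjusted p under 0.05. All 5 activated and 3 resting markers are filled in WT IR against WT sham, and Cthrc1 alone at -4.01 in the Zeb2 cTg-labelled libraries against Zeb2 WT IR. In both comparisons Cthrc1 passed the filter on low counts through the group where it was high. With libraries scaled on fibroblast genes 6 of the 10 injury values turn below 0.

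The injured hearts differed from each other in all members together. WT IR replicate 3 had the highest value of the 3 injured hearts for all 10 members, and replicate 1 the lowest for 9 of the 10. The mean of the activated markers was 3.43, 4.11 and 4.81 log2 CPM in WT IR replicates 1, 2 and 3, and that of the resting markers 5.07, 5.48 and 5.99. In the sham hearts the resting mean was even, at 4.6, 4.55 and 4.6 log2 CPM, whereas the activated mean was 2.43, 1.56 and 1.66. The difference between the class means was -2.17, -2.99 and -2.94 in WT sham and -1.63, -1.36 and -1.18 in WT IR hearts, so it was higher in each injured than in each sham heart. The activated means include Cthrc1, which gave only 23, 2 and 1 counts in WT sham and had the largest log2 fold change of the members, 3.97.

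**Figure D3:**
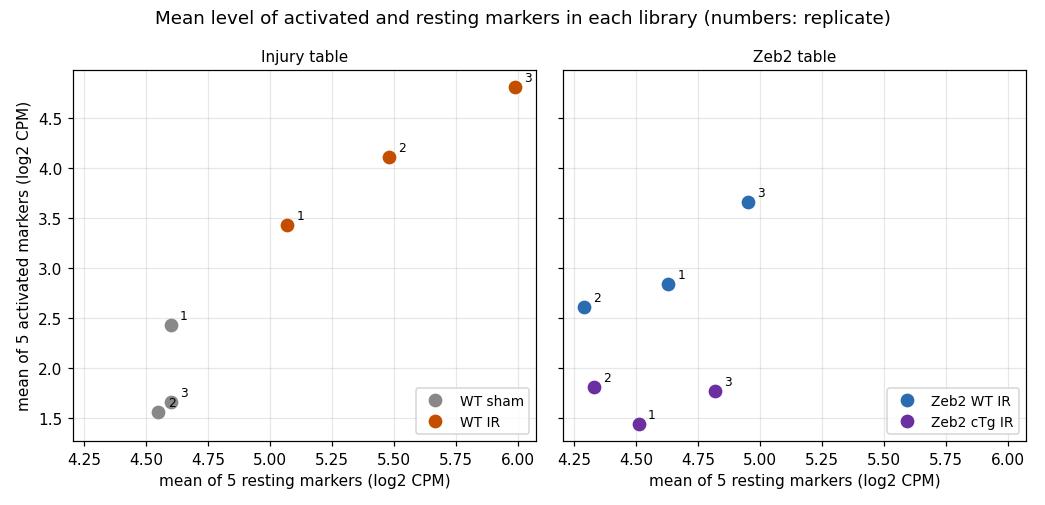
Mean log2 CPM of the 5 activated markers (y axis) against that of the 5 resting markers (x axis) in each library, with replicate numbers beside the points and 1 panel for each table. The WT IR hearts lie above and to the right of the WT sham hearts, and the Zeb2 cTg-labelled libraries lie under the Zeb2 WT IR hearts on the y axis with an overlapping spread on the x axis.

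Markers of other cells moved in the same libraries. A list of 16 general fibroblast genes, such as Col1a1, Dcn and Pdgfrb, rose as a whole: all 16 passed the test in WT IR, with a median log2 fold change of 1.56 and summed levels of 861 to 1300 CPM in WT sham and 2360, 3580 and 5290 CPM in WT IR replicates 1, 2 and 3. Macrophage markers rose in 9 of 12 cases, with summed levels of 173 to 190 CPM in WT sham and 249, 383 and 458 CPM in those 3 hearts, where all 12 were counted in every library. Cardiomyocyte markers were at a summed 69700 to 76600 CPM in WT sham and at 69100, 58800 and 53700 CPM in the same hearts, with 6 of 22 called lower. By edgeR 0 of 12 endothelial markers passed the test (5 at an unadjusted p under 0.05, and 0 by DESeq2), at 699 to 738 CPM in WT sham and 599 to 748 CPM in WT IR. These edgeR counts depended on the scaling. With scaling on cardiomyocyte markers 11 macrophage, 5 endothelial and 1 cardiomyocyte marker were called higher, and 2 cardiomyocyte markers lower. With scaling on fibroblast genes 4 macrophage, 12 endothelial and 22 cardiomyocyte markers were called lower, and 0 higher. Of the epicardial and mesothelial markers Wt1, named after its value was seen, was called lower, from 3.22 ± 0.44 to 1.74 ± 0.171 CPM (log2 -0.89 ± 0.17, adjusted p = 0.00906). This call also depended on the scaling: 0 of the 5 tested markers of that list were called lower with cardiomyocyte scaling, and all 5 with fibroblast scaling. In tissue RNA, more fibroblasts and more RNA of a gene per fibroblast cannot be told apart, and the part of macrophages in the values of Runx1 and Gsn was not tested.

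Scaling the libraries on the 16 fibroblast genes gives the level of each member relative to them. This scaling moved the median of all 13756 genes to -1.37, with 90.6% of genes called lower and 0.502% called higher. Relative to the fibroblast genes, Postn (1.96 ± 0.42, adjusted p = 2.29e-05) still rose, and so did Cthrc1 (2.48 ± 0.42, adjusted p = 2.19e-07), with the limit of the filter given above. Meox1 was at 0.23 ± 0.35 and Dpt at 0.33 ± 0.37, neither past the threshold. Gsn (-1.05 ± 0.43, adjusted p = 0.0171) and Tcf21 (-0.91 ± 0.37, adjusted p = 0.0152) fell on this scale, whereas Pdgfra was at -0.68 ± 0.37, Pi16 at -0.13 ± 0.36, Fap at -0.67 ± 0.35 and Runx1 at -0.39 ± 0.34. Set against the median of all genes on the same scale, every member was above it, by 0.32 for Gsn to 3.85 for Cthrc1. Taking off that median largely undoes the scaling, so these values repeat those under TMM (0.37 and 3.97) and add no support. The fibroblast genes include collagens that activated cells make, so this scale is not one of cell number.

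**Figure D4:**
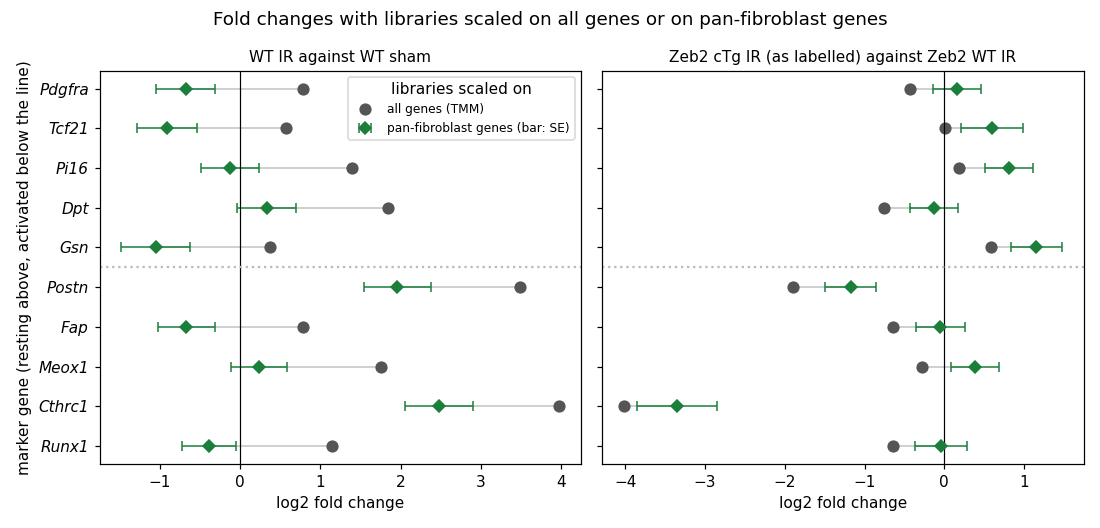
Log2 fold change (x axis) of each marker gene with libraries scaled on all genes by TMM (grey circles) and on 16 fibroblast genes (green diamonds, bars are SE), in both comparisons. In WT IR against WT sham Postn and Cthrc1 stay well above 0 on both scales at 1.96 and 2.48 or more, and in the Zeb2 cTg-labelled libraries they stay below 0 on both.

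Other genes of the 2 states were read from wider lists. Of 23 other resting fibroblast genes, all tested, 14 rose and 0 fell, with a median log2 fold change of 0.44 that turned to -0.94 when scaled on fibroblast genes. Mfap5, a microfibril protein, rose most among those named (7 ± 1.47 to 44 ± 22.7 CPM, log2 2.66 ± 0.35, adjusted p = 0.00366), followed by the fibril-associated collagen gene Col14a1 (2.46 ± 0.39, adjusted p = 0.00532) and the complement inhibitor gene Serping1 (1.54 ± 0.23, adjusted p = 0.00441). Apod (0.91 ± 0.16), Cd34 (0.86 ± 0.12) and Smoc2 (0.81 ± 0.12) passed with smaller rises, which turned below 0 on the fibroblast scale (-0.49, -0.58 and -0.6). Of 32 other activated fibroblast genes, 30 were tested, 27 rose and 1 fell, with a median of 2.46 that stayed at 0.95 on the fibroblast scale. The cartilage matrix gene Comp (0.485 ± 0.0932 to 36.8 ± 21.2 CPM, log2 6.22 ± 0.51), the latent TGF-beta binding protein gene Ltbp2 (5 ± 0.42), Angptl7 (4.47 ± 0.43), Cilp (4.45 ± 0.39), Aspn (2.78 ± 0.29) and the collagen gene Col8a1 (2.66 ± 0.26) had the smallest p-values among them (adjusted 0.000882 to 0.002), not the 6 largest changes. The exception was Acta2, the smooth muscle actin of myofibroblasts and of vessel walls, which fell from 45.2 ± 6.91 to 30.6 ± 4.18 CPM (log2 -0.57 ± 0.13, adjusted p = 0.0163) but did not pass with scaling on cardiomyocyte markers (-0.24), while mural cell markers were at a summed 717 to 735 CPM in WT sham and 632 to 791 CPM in WT IR.

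Ligands, receptors and partners of the members made up a list of 40 genes, of which 39 were tested, 16 rose and 5 fell, with a median log2 fold change of 0.27 (-1.1 on the fibroblast scale). Of the TGF-beta ligands, Tgfb3 rose 2.1 ± 0.23 on the log2 scale (6.35 ± 1.12 to 27.3 ± 8.96 CPM, adjusted p = 0.00208) and stayed above 0 on the fibroblast scale, and Tgfb2 rose by 1.42 ± 0.24 (adjusted p = 0.00672) but stood at -0.06 there. Tgfbi, a matrix protein related to periostin (1.04 ± 0.19), the periostin-binding integrin subunit gene Itgav (0.66 ± 0.13) and the second PDGF receptor gene Pdgfrb (0.48 ± 0.08) rose too, but turned below 0 on the fibroblast scale. The proteoglycan gene Dcn rose by 1.47 ± 0.22 and was at -0.02 on that scale. Dcn and Pdgfrb are themselves among the 16 scaling genes, which draws their values on it towards 0. The PDGF ligand gene Pdgfb fell (-0.47 ± 0.11, adjusted p = 0.0193), as did Srf (-0.6 ± 0.13, adjusted p = 0.0129), a factor of contractile genes, Tcf3 (-0.44 ± 0.12, adjusted p = 0.0314), a dimer partner of Tcf21, and the Meox1 paralogue Meox2 (-0.34 ± 0.1, adjusted p = 0.0381). The gelsolin relative Flii fell as well (-0.28 ± 0.08, adjusted p = 0.0284). With scaling on cardiomyocyte markers 0 of the list's genes passed as lower (25 as higher), with Srf at -0.27, Pdgfb at -0.15, Tcf3 at -0.1, Meox2 at -0.02 and Flii at 0.05.

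The second comparison asked how the markers differed between the Zeb2 cTg-labelled libraries and Zeb2 WT IR, all from injured hearts, over 13018 genes tested. Of the 5 activated markers, 1 fell and none rose; this was Cthrc1, which was tested only because of its counts in Zeb2 WT IR. All 5 had a log2 fold change below 0, with a median of -0.64 that became -0.05 with libraries scaled on fibroblast genes. By edgeR 0 of the 5 resting markers passed the test, and their median was 0.01, as was that of all genes. At an unadjusted p under 0.05 the counts were 4 activated and 2 resting markers, all lower, beside 3134 of all 13018 genes in either direction. DESeq2 called 1 resting marker lower. Of all genes tested, 2.14% passed in the upward and 1.51% in the downward direction. The groups did not overlap for 5 of the 10 members, all lower in the Zeb2 cTg-labelled libraries, where 13.4% of all genes were higher and 12.8% lower without overlap. With libraries scaled on fibroblast genes, which moved the median of all genes to 0.58, Pdgfra (0.16) and Meox1 (0.38) turned above 0, and Pi16 (-0.1) and Tcf21 (-0.3) turned below 0 with scaling on cardiomyocyte markers, which moved it to -0.31.

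Cthrc1 gave 36, 33 and 124 counts in Zeb2 WT IR and 3, 1 and 8 counts in the Zeb2 cTg-labelled libraries. The ratio of summed counts per library size, 193 against 12, was 16.8 with an exact 95% interval of 9.4 to 33.1 for counting error only, beside a fitted log2 fold change of -4.01 ± 0.65 (adjusted p = 0.0143). Cthrc1 passed the filter only through the Zeb2 WT IR libraries, and it lost its call without Zeb2 cTg IR replicate 1 (adjusted p = 0.0536). Postn was at 137, 83.2 and 310 CPM in Zeb2 WT IR and at 21.5, 81.3 and 39.1 CPM in the Zeb2 cTg-labelled libraries, with the groups only just apart (log2 -1.9 ± 0.54, 95% interval -3.11 to -0.7, adjusted p = 0.0791). Replicate 2 of the latter was the high library, and without it Postn passed (log2 -2.54, adjusted p = 0.0123). That fit called 2419 of 13314 genes, against 278 higher and 196 lower of 13018 in the fit with no library left out. Runx1 was at 3.26, 2.67 and 3.7 CPM against 1.93, 2.18 and 2.08 CPM, a difference of -0.64 ± 0.2 on the log2 scale that missed the threshold (adjusted p = 0.1) with no overlap of the groups. Fap was at 3.74, 5.5 and 5.76 CPM against 3.77, 2.9 and 2.98 CPM (-0.64 ± 0.21, adjusted p = 0.118) and Meox1 at 7.59, 4.65 and 11.2 CPM against 4.48, 8.82 and 6.04 CPM (-0.28 ± 0.32, 95% interval -1.01 to 0.45, adjusted p = 0.618), both with overlap.

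The resting markers were split in sign. Dpt was at 41.4, 41.1 and 66.2 CPM in Zeb2 WT IR and at 26.4, 29.2 and 32.7 CPM in the Zeb2 cTg-labelled libraries, apart in every pair of hearts but short of the threshold (log2 -0.75 ± 0.19, adjusted p = 0.064). It passed without Zeb2 cTg IR replicate 2 (adjusted p = 0.0417), in the fit that called 2419 of 13314 genes. Pdgfra was at 37.8, 35.3 and 49.6 CPM against 28.7, 27.8 and 34.3 CPM (-0.43 ± 0.16, adjusted p = 0.139), also without overlap. Gsn was at 292, 189 and 255 CPM against 410, 218 and 482 CPM, with overlap and the opposite sign (0.59 ± 0.27, 95% interval -0.02 to 1.2, adjusted p = 0.22), and passed without the same replicate 2 (0.86, adjusted p = 0.014). Pi16 was at 17, 8.62 and 20.8 CPM against 17.5, 14.9 and 20.4 CPM (0.18 ± 0.28, 95% interval -0.44 to 0.8), and Tcf21 at 1.14, 1.13 and 1.53 CPM against 1.05, 1.18 and 1.57 CPM (0.01 ± 0.27, 95% interval -0.6 to 0.61). Neither interval shows that the groups had like levels.

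The difference between the class means was -1.8, -1.68 and -1.29 in Zeb2 WT IR hearts and -3.07, -2.52 and -3.05 in the Zeb2 cTg-labelled libraries, with no overlap. The activated mean was 2.84, 2.61 and 3.66 log2 CPM in the former and 1.44, 1.81 and 1.77 in the latter, whereas the resting mean overlapped, at 4.63, 4.29 and 4.95 against 4.51, 4.33 and 4.82. Within each table the groups thus parted more in the activated than in the resting mean, and this description carries no test, because the members were chosen as markers of these states. The activated mean leans on Cthrc1, at 3, 1 and 8 counts in the Zeb2 cTg-labelled libraries. Its log2 fold change there was -4.01 and that of Postn -1.9, against -0.64, -0.64 and -0.28 for Runx1, Fap and Meox1. The class means without Cthrc1 were not tested. Zeb2 WT IR replicate 3 was the highest of its group for 9 of the 10 members and replicate 2 the lowest for 8.

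General fibroblast genes were lower in the same libraries for 15 of 16 genes, with 3 called lower, a median log2 fold change of -0.61, and summed levels of 1550, 1140 and 2290 CPM against 839, 821 and 977 CPM. The 3 were Col3a1 (-1.88 ± 0.34, adjusted p = 0.0213), Col1a2 (-1.39 ± 0.32, adjusted p = 0.0497) and Lum (-1.31 ± 0.25, adjusted p = 0.0257), which encode 2 fibrillar collagen chains and a collagen-binding proteoglycan. Cardiomyocyte markers were at a summed 68000 to 73400 CPM against 76000 to 80400 CPM, with 2 of 22 called higher. Ttn, which was not called, made up most of that sum (42200 ± 3240 against 46500 ± 3790 CPM). Of the 22 genes 16 were above 0 and 6 below, with a median log2 fold change of 0.2. Macrophage markers were at 190 to 259 CPM against 197 to 231 CPM, with 1 of 12 called higher. Endothelial markers were at 632 to 679 CPM against 560 to 629 CPM, and by edgeR 0 of 12 passed (4 at an unadjusted p under 0.05, and 1 by DESeq2). With scaling on fibroblast genes 11 cardiomyocyte, 5 macrophage and 3 endothelial markers were called higher, and 0 lower. With scaling on cardiomyocyte markers 1 macrophage marker was called higher and 1 lower, and 0 of the cardiomyocyte and endothelial markers passed. Relative to the 16 fibroblast genes, Postn (-1.17 ± 0.32, adjusted p = 0.00231) was lower, although it overlapped between the groups, and Cthrc1, with the limit of the filter given above, was at -3.35 ± 0.5. Fap was at -0.05 ± 0.31, Runx1 at -0.04 ± 0.33 and Meox1 at 0.38 ± 0.3 on that scale, whereas Gsn (1.15 ± 0.32, adjusted p = 0.00352) and Pi16 (0.81 ± 0.3, adjusted p = 0.0273) passed as higher. On that scale 31.0% of all genes were called higher and 0.853% lower, and Gsn and Pi16 stood only 0.57 and 0.23 above the median of all genes. Fold changes in this comparison went with GC content over 12892 genes with a known GC content (Spearman rho 0.552, a description), and after a correction for it Postn was at -1.68 (adjusted p = 0.094), Gsn at 0.22, Fap at -0.34 and Cthrc1 at -3.83 (adjusted p = 0.0168). Postn and Fap have the lowest GC content of the members, 36.3% and 39.7%, and Gsn the highest, 57.1%. Fold changes of WT IR against WT sham also went with GC content, less strongly and in the opposite direction (rho -0.292 over 13609 genes).

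Of 32 other activated fibroblast genes, 31 were tested, 7 fell and 2 rose, with a median log2 fold change of -1.19. On the fibroblast scale 10 were called lower and 4 higher, with a median of -0.56, and with scaling on cardiomyocyte markers 19 were called lower and 2 higher. The 7 included the matricellular gene Ccn4 (3.22 ± 0.751 to 0.502 ± 0.0982 CPM, log2 -2.67 ± 0.28, adjusted p = 0.00204), the collagen cross-linking enzyme gene Lox (-2.8 ± 0.32, adjusted p = 0.00325), tenascin C, Tnc (-2.83 ± 0.53, adjusted p = 0.024), and the growth factor gene Ptn (-2.39 ± 0.48, adjusted p = 0.0307). The other 3 were Ccn5, Fmod and Aspn. Ptn and Fmod were low in the Zeb2 cTg-labelled libraries, at 0.288 ± 0.0572 and 0.181 ± 0.209 CPM. Like Cthrc1 they were tested mainly because of their counts in Zeb2 WT IR, so their calls say less. The 2 that rose were Ncam1 (1.65 ± 0.557 to 8.22 ± 0.569 CPM, log2 2.3 ± 0.24, adjusted p = 0.00204), an adhesion molecule gene of nerve and muscle cells as well, and Acta2 (16.9 ± 3.21 to 53.9 ± 12.7 CPM, log2 1.67 ± 0.2, adjusted p = 0.00463). Under TMM scaling Acta2 thus had the opposite sign to the 5 activated markers in both comparisons, and mural markers were at a summed 703 to 836 CPM in Zeb2 WT IR against 538 to 602 CPM. Rgs5 and Abcc9 made up most of that sum (Abcc9 was called lower), whereas 6 of the 9 mural markers were above 0, with a median of 0.2. Of 23 other resting fibroblast genes, 2 fell, Col14a1 (-1.45 ± 0.28, adjusted p = 0.0283) and the adipogenesis gene Medag (-0.91 ± 0.21, adjusted p = 0.0477), and none rose, with a median of -0.21 (0.31 on the fibroblast scale). Of the ligands, receptors and partners, 38 were tested and 0 passed by edgeR, with a median of -0.09; 12 had an unadjusted p under 0.05 and DESeq2 called 5. With edgeR 10 were called higher on the fibroblast scale (median 0.49), and 5 lower with scaling on cardiomyocyte markers (median -0.4).

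The genes whose pattern over the 12 libraries was most like the class means were looked up among 6866 genes with at least 5 CPM on average, by the root mean square difference of log2 CPM centred within each table. The 5 nearest to the activated mean were Col14a1 (0.09), Col5a2 (0.17), Fstl1 (0.19), Lum (0.19) and Fn1 (0.23), against a median of 1.03 over all genes compared. Col14a1 thus followed the activated markers most closely, although it stood in the list of resting genes. The 5 nearest to the resting mean were Arfgap3 (0.08), Crispld2, Tmed3 and Txndc5 (each 0.1) and Plat (0.11), against a median of 0.46. Their fold changes were 0.79 to 1.11 in WT IR against WT sham and -0.21 to 0.03 in the Zeb2 cTg-labelled libraries against Zeb2 WT IR.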

How the data were processed

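RNA from 12 hearts was sequenced by the authors as stranded single-end reads of 75 bases. Per the submitters' processing notes the reads were aligned with STAR 2.4.2a and counted on genes with HTSeq 0.6.1. The authors deposited whole-number counts per gene, without normalization, in 2 tables of 6 libraries. Their DESeq results were not used.

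Each table was fitted on its own in R 4.3.3 with edgeR 4.0.16: filterByExpr (minimum count 10, minimum total 15), TMM, the quasi-likelihood test without a replicate block, with p-values adjusted by Benjamini-Hochberg across every tested gene of the table and called under 0.05. The SE was taken from the log2 fold change and its F value. CPM use TMM-adjusted library sizes, and log2 CPM a prior count of 2. Symbols, positions, exon length and GC content came from GENCODE M21, which matched 36345 of 38293 identifiers, and promoter windows from RefSeq. With 3 mice against 3, an exact test of a single gene cannot give a p under 0.1.

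All 10 members are reported. Of each other list the text names up to 6 called genes with the smallest p whose groups did not overlap, and those called against the rest of the list. The members and lists were chosen with earlier results of these data known. Alternatives were RLE and upper-quartile scaling, scaling on cardiomyocyte or fibroblast genes, no mitochondrial genes, other filters, DESeq2 1.42.0, limma-voom (limma 3.58.1), a GC correction (loess, span 0.5), a replicate block, both together, 1 fit of all 12 libraries, each library left out, and other thresholds. The fit was tested on simulated counts. No 2 libraries were alike within sampling noise.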

Additional observations from a re-analysis of the deposited data

How the results depend on the processing

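In WT IR against WT sham, the 5 activated calls stayed within 1.5 times except for 2 with scaling on fibroblast genes and 3 at an adjusted p under 0.01; the 3 resting calls became 5 with scaling on cardiomyocyte markers, and with scaling on fibroblast genes 2, both lower. Over all genes, 2859 calls (1519 higher, 1340 lower) became 4467 (4251 and 216) with cardiomyocyte scaling, 12537 (69 and 12468) with fibroblast scaling, 1424 with all 12 libraries in 1 fit, 4973 at an unadjusted p under 0.05 and 699 at an adjusted p under 0.01. With fibroblast scaling Pdgfra was at -0.68, Tcf21 at -0.91, Pi16 at -0.13, Gsn at -1.05, Fap at -0.67 and Runx1 at -0.39. Gsn passed after the GC correction (0.5, adjusted p = 0.0364).

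In the Zeb2 cTg-labelled libraries against Zeb2 WT IR, the 1 activated call became 4 with cardiomyocyte scaling, 2 with fibroblast scaling, 2 with no filter, 2 with all 12 libraries in 1 fit, 0 with at least 10 counts in every library, 4 at an unadjusted p under 0.05 and 0 at an adjusted p under 0.01. The 0 resting calls became 2 with cardiomyocyte scaling, 2 with fibroblast scaling, 2 with no filter, 1 with DESeq2 and 2 at an unadjusted p under 0.05. Over all genes, 474 calls (278 higher, 196 lower) became 769 (131 and 638) with cardiomyocyte scaling, 4150 (4039 and 111) with fibroblast scaling, 1553 with no filter, 1096 with DESeq2, 778 with the GC correction, 1932 with all 12 libraries, 3134 at an unadjusted p under 0.05 and 62 at an adjusted p under 0.01. Pdgfra was at 0.16 and Meox1 at 0.38 with fibroblast scaling; Pi16 at -0.1 with cardiomyocyte scaling and -0.04 with the GC correction; and Tcf21, near 0 throughout, at 0 with RLE and DESeq2, -0.01 with upper-quartile and -0.3 with cardiomyocyte scaling. Zeb2 was at 0.52 with fibroblast scaling and 0.2 with the GC correction. The cause of these shifts was not tested, except that Cthrc1 was not tested in either comparison with at least 10 counts in every library.

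With 1 library left out, activated calls ranged from 2 to 5 and resting calls from 1 to 5 in WT IR against WT sham, both lowest without WT sham replicate 2 and highest without WT IR replicate 1, and calls over all genes from 421 to 4980 for the same 2 libraries. In the other comparison activated calls ranged from 0 (without Zeb2 cTg IR replicate 1) to 2, resting calls from 0 to 2 and calls over all genes from 98 (without Zeb2 WT IR replicate 3) to 2419, each highest without Zeb2 cTg IR replicate 2. Zeb2 ranged from -0.13 to 0.02, Tcf21 from -0.18 to 0.17 (among them -0.07 and -0.06), Pi16 from -0.1 to 0.45 and Meox1 from -0.57 to 0.07. The difference of the class medians, 0.97 and -0.65, ranged from 0.77 to 1.05 and from -0.89 to -0.46, and kept its sign under every alternative.

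Same-numbered mice share only a number: the correlations of their deviations were -0.0343, 0.0119 and -0.0146 in the first table and 0.134, 0.26 and -0.0425 in the second, where 3 of 6 libraries correlated best with their own number. With the replicate block the second comparison gave 1813 calls over all genes, 2 activated and 3 resting calls, with Tcf21 at 0, and with the block and the GC correction 825 calls, 1 activated and 1 resting call, with Zeb2 at 0.2. In WT IR against WT sham the block left counts within 1.5 times. There, Fap did not pass with the block and the GC correction together (0.6, adjusted p = 0.0518).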
